A study of Musa acuminata AAA Group with 4 samples.

Results

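The genes described here moved in opposite directions in leaf and root when banana grew on low nitrogen. The plants were Musa acuminata AAA Group, cv. Cavendish, a clonally propagated triploid dessert banana, kept in clean sand and sampled after 60 days. The groups were low-N leaf and normal-N leaf, then low-N root and normal-N root, where low N was a low-nitrogen culture solution and normal N was complete Hoagland solution. Each group had 1 library, and the sources used here do not say how many plants it held. The samples labelled as leaves were cut as the aboveground part, leaves together with pseudostems (the stem of rolled leaf sheaths), and this holds under both solutions.

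Levels are FPKM, fragments per kilobase of gene length, scaled to the total of the library. A change is log2 of (FPKM + 1) under low N over (FPKM + 1) under normal N in the same tissue; adding 1 makes the change of genes with low levels look smaller. A gene entered the set when its leaf and root changes had opposite signs, the smaller of them reached 1 in size, and each tissue had a library with 2 FPKM or more. Of 31873 genes seen in any library, 19179 had that level in both tissues, and 243 of those (1.27%) were in the set. In 163 genes (0.850%) low-N leaf was higher and low-N root was lower, and in 80 genes (0.417%) low-N leaf was lower and low-N root was higher. For comparison, 278 genes passed the same limits with both tissues in the same direction, 120 higher under low N (0.626%) and 158 lower (0.824%). The opposite directions are the criterion of choice, so they are given as a description and carry no test. With 1 library a group, no replicates check these differences. Intervals printed with folds cover counting error only.

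Plants take up nitrate mainly through root surface cells and reduce it to ammonium in roots and in leaves. In Arabidopsis and rice, high-affinity uptake needs an NRT2 transporter together with its small partner NAR2, and both respond to nitrate itself and to the nitrogen status of the plant. In nitrogen shortage, older leaves break down chloroplast protein and export its nitrogen, while roots can change their growth, walls and secondary metabolism.

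The libraries were of similar depth, with 4144048 to 4408992 expected fragments on genes and 26796 to 29158 genes detected. The tissue labels fitted the marker genes: 31 photosystem, antenna and RuBisCO small chain genes summed to 22488 FPKM in low-N leaf against 54865 FPKM in normal-N leaf, and to 171 FPKM in low-N root against 309 FPKM in normal-N root. Of these 31 genes, 9 were at 0 in low-N root and 11 in normal-N root, none was at 0 in either leaf library, and 2 are in the set. A list of 15 genes with casparian, dirigent or root in their description, meant for root surface and endodermis, summed to 645 FPKM in low-N leaf against 372 FPKM in normal-N leaf, and to 549 FPKM in low-N root against 1616 FPKM in normal-N root. Of these, 3 genes were at 0 in each leaf library and none in root, and 3 of the 15 are in the set. The word root also caught genes of other roles, such as a root isozyme of ferredoxin-NADP reductase (Ma04_g34890), and under low N the list summed higher in leaf than in root, so it marks root only loosely. A further 15 genes of vascular tissue and secondary walls summed to 78 FPKM in low-N leaf against 65 FPKM in normal-N leaf, and to 243 FPKM in low-N root against 624 FPKM in normal-N root, with 5 genes at 0 in low-N leaf and 1 in normal-N leaf. Its median gene was at 0.28 FPKM in low-N leaf against 0.45 FPKM in normal-N leaf, and at 9.1 FPKM in low-N root against 20.9 FPKM in normal-N root. Both lists were thus lower in low-N root, and in leaf the sum of the first was higher under low N while the second had a slightly higher sum and a lower median. Their part in the results was not tested. In such bulk samples, fewer cells of a type and less RNA per cell cannot be told apart.

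Over all 19179 genes the median change was 0.12 in leaf and -0.02 in root. The 163 genes higher in low-N leaf and lower in low-N root had a median leaf change of 1.51 and a median root change of -1.35. Their difference, leaf change minus root change, had a median of 2.92 and a range of 2.06 to 6.60. In the other class of 80 genes the median leaf change was -1.61, the median root change was 1.48, and the median difference was -3.19, with sizes of 2.05 to 7.24. Across all genes the 5th and the 95th percentile of the difference were -1.22 and 1.80. Levels in the first class ran over 2.03 to 354 FPKM in low-N leaf, 0 to 77.5 FPKM in normal-N leaf, 0 to 99.5 FPKM in low-N root and 2.03 to 343 FPKM in normal-N root. In the second class they ran over 0 to 2282 FPKM in low-N leaf, 2.03 to 6215 FPKM in normal-N leaf, 2.09 to 4527 FPKM in low-N root and 0 to 1333 FPKM in normal-N root. Both changes reached 2 in size in 13 genes of the first class and in 12 of the second. Taken by tissue, a change of at least 1 was seen in 2065 genes higher (10.8%) and 1075 lower (5.61%) in low-N leaf. In low-N root the counts were 555 higher (2.89%) and 890 lower (4.64%). The leaf excess depends on how the libraries are scaled. It reversed with scaling by median ratios, at 1526 up against 1678 down. With the median change set to 0 in each tissue it shrank to 1650 against 1389, and with equal totals it grew to 2388 against 924. The share of the set in the first class likewise went from 67.1% to 50.2% by median ratios.

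**Figure D1:**
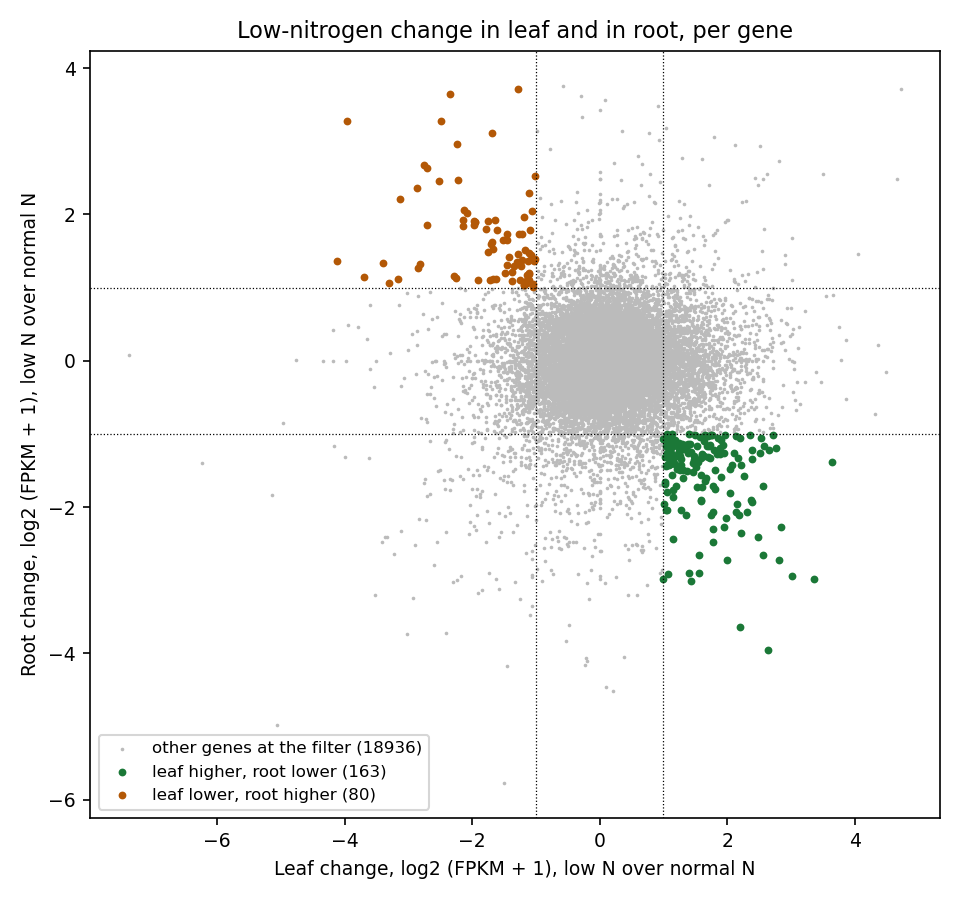
Low-nitrogen change of each gene in leaf (x axis) and in root (y axis), both as log2 (FPKM + 1) under low N over normal N, for the 19179 genes with at least 2 FPKM in the higher library of each tissue. Dotted lines mark a change of 1 in size. The 163 green points lie at the lower right (higher in low-N leaf, lower in low-N root) and the 80 orange points at the upper left, the corners that the criterion defines, while the bulk of the grey points lies near 0 on both axes.

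The nitrate uptake genes gave the largest differences among described genes of the first class. NAR2, described as high-affinity nitrate transporter-activating protein 2.1 (Ma09_g01900), is the partner protein that brings NRT2 transporters to the plasma membrane. It had 22.1 FPKM in low-N leaf against 1.24 FPKM in normal-N leaf, while low-N root had 39.1 FPKM against 314 FPKM in normal-N root. The leaf level was 17.8-fold higher (95% interval 5.75 to 88.8) and the root level 8.06-fold lower (6.54 to 10), a difference of 6.34. The normal-N root library stood far above the other 3.

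A second NAR2 gene, transporter-activating protein 2.1-like (Ma06_g13610), had 255 FPKM in low-N leaf against 54.5 FPKM in normal-N leaf. In root it had 26.7 FPKM under low N against 343 FPKM under normal N. That is 4.66-fold higher in low-N leaf (3.86 to 5.67) and 12.9-fold lower in low-N root (10.1 to 16.7), a difference of 5.84. Here the 2 tissues exchanged places, since the transcript was higher in leaf under low N and higher in root under normal N.

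The transporter itself, NRT2.1-like (Ma08_g13030), had 9.47 FPKM in low-N leaf against 2.54 FPKM in normal-N leaf, with 22.3 FPKM in low-N root against 173 FPKM in normal-N root. It was 3.72-fold higher in leaf (2.15 to 6.79) and 7.73-fold lower in root (6.55 to 9.18). Root remained its higher tissue under both solutions. Part of its reads were shared with other genes (its expected counts are not whole), so its split from close copies is uncertain.

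The fourth NRT2 or NAR2 gene with enough signal, NRT2.3-like (Ma04_g06400), is not in the set: it had 119 FPKM in low-N leaf against 18.4 FPKM in normal-N leaf, but 7.57 FPKM in low-N root against 5.10 FPKM in normal-N root. So 3 of 4 described NRT2 and NAR2 genes were opposite, with list medians of 2.42 in leaf and -2.94 in root. Descriptions came from the authors' filtered tables alone, which keep genes for their change in these same libraries, so the counts of this and of each later list are not independent evidence of a direction. Among the 2424 genes of those tables with the required level, 3.92% were in the first class and 1.73% in the second, with median changes of 1.05 in leaf and -0.10 in root.

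The other nitrogen lists held 3 to 13 genes with enough signal, too few to set their counts against the 3.92% and 1.73% given above. Among 6 NPF transporters, which carry nitrate, peptides and hormones, 1 was in the set: NPF4.6-like (Ma07_g08710), whose Arabidopsis namesake carries nitrate and abscisic acid, had 23.4 FPKM in low-N leaf against 9.26 FPKM in normal-N leaf, while low-N root had 5.51 FPKM against 13.2 FPKM in normal-N root. All 6 NPF genes were higher by size in low-N leaf, and this is the only one of them that was lower by size in low-N root. In all, 14 NPF genes were described, and those outside the 6 had too little signal in at least 1 tissue. They were not all higher in low-N leaf, and some of them were lower by size in low-N root. None of the 3 ammonium transporters met the criterion. Ammonium transporter 1 member 1-like (Ma11_g15780) came near, at 47.2 FPKM in low-N leaf against 25.4 FPKM in normal-N leaf, with 27.6 FPKM in low-N root against 88.2 FPKM in normal-N root.

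Nitrogen assimilation held no gene of the set (0 of 11, or 1 of 14 with KEGG Orthology descriptions searched as well). Of the 11, 1 entered when libraries were scaled to equal total FPKM or when counts were divided by library totals. In root 10 of these 11 genes were lower by size, but in leaf 4 were lower and none was higher, with medians of -0.22 in leaf and -2.21 in root. The search terms also caught uroporphyrinogen-III synthase (Ma02_g09590), with changes of -1.09 in leaf and -0.58 in root. It is 1 of the 4 lower in leaf and the only gene of the 11 not lower by size in root. Nitrate reductase (Ma09_g14900), which makes nitrite from nitrate, had 905.8 FPKM in low-N leaf against 1052 FPKM in normal-N leaf, while low-N root had 17.9 FPKM against 314 FPKM in normal-N root. Nitrite reductase (Ma09_g14720), the next step, had 374 FPKM in low-N leaf against 348 FPKM in normal-N leaf, with 8.11 FPKM in low-N root against 199 FPKM in normal-N root. For these 2 genes the root change was large and negative, as for NAR2 and NRT2.1-like, and the leaf change was within 1. Another nitrate reductase gene (Ma03_g07170) missed the criterion narrowly, with a leaf change of 0.98 and a root change of -2.86, at 31.9 FPKM in low-N leaf against 15.7 FPKM in normal-N leaf, with 0.42 FPKM in low-N root against 9.33 FPKM in normal-N root. By sign alone, 4 of the 11 genes were higher in low-N leaf and lower in low-N root. Among 13 amino acid and peptide transporters, which load and unload organic nitrogen, 9 were higher by size in low-N leaf, 3 were lower by size in low-N root, and none did both. Of the 2424 filtered-table genes at the required level, 1308 were higher by size in low-N leaf and 469 lower in low-N root.

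**Figure D2:**
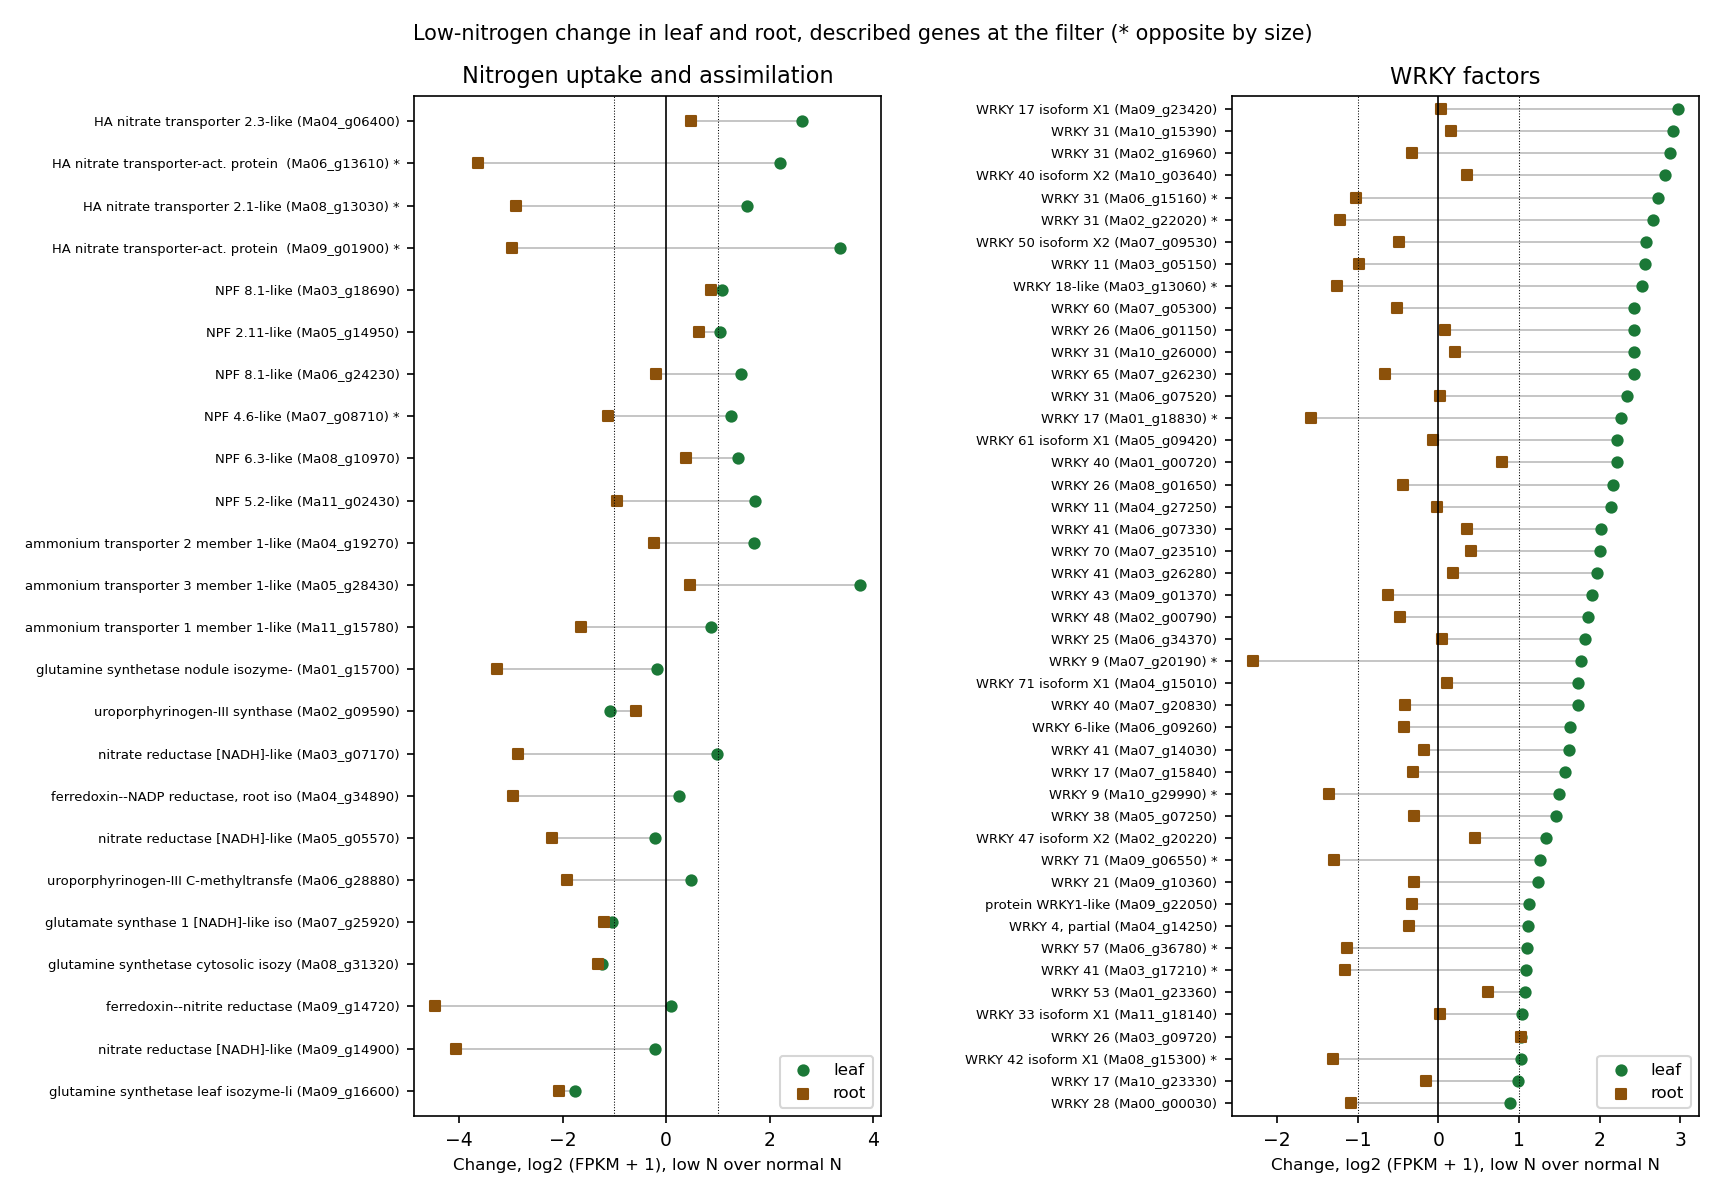
Change in leaf (green circles) and in root (brown squares) on the log2 (FPKM + 1) scale, low N over normal N, for the described genes of nitrogen uptake and assimilation (left) and for 46 WRKY factors (right) with at least 2 FPKM in the higher library of each tissue; dotted lines mark 1 in size and asterisks the genes of the set. Nitrogen assimilation genes lie to the left in root and between -1.76 and 0.98 in leaf, while all WRKY circles lie right of 0 and their squares spread over both sides.

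WRKY factors, plant transcription factors best known from defence and senescence, had 10 genes in the set, all in the first class. The list has 46 described genes with enough signal. In low-N leaf 44 of the 46 were higher by size, and in low-N root 11 were lower and 1 was higher. The list medians were 1.87 in leaf and -0.33 in root. In comparison, 3.92% of the 2424 filtered-table genes at the required level were in the first class. Of the 2424, 1308 were higher by size in low-N leaf and 469 lower by size in low-N root. Most WRKY genes of the list, 34 of 46, changed by less than 1 in root. With the libraries scaled by median ratios, 6 WRKY genes met the criterion.

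Probable WRKY transcription factor 9 (Ma07_g20190) had the largest difference of the family, 4.07. It had 16.9 FPKM in low-N leaf against 4.25 FPKM in normal-N leaf, while low-N root had 2.50 FPKM against 16.2 FPKM in normal-N root. The low-N leaf and normal-N root libraries stood at nearly the same level, well above the other 2. It was 3.98-fold higher in leaf (2.52 to 6.51) and 6.49-fold lower in root (3.75 to 12).

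WRKY factor 31 (Ma02_g22020) had 23.99 FPKM in low-N leaf against 2.95 FPKM in normal-N leaf, with 16.8 FPKM in low-N root against 40.4 FPKM in normal-N root. WRKY factor 17 (Ma01_g18830), whose Arabidopsis namesake restrains defence against bacteria, had 60.9 FPKM in low-N leaf against 11.8 FPKM in normal-N leaf, while low-N root had 10.2 FPKM against 32.6 FPKM in normal-N root. WRKY factor 18-like (Ma03_g13060) had 50.3 FPKM in low-N leaf against 7.93 FPKM in normal-N leaf, with 8.58 FPKM in low-N root against 21.9 FPKM in normal-N root. These 3 were 5.13-fold to 8.14-fold higher in leaf and 2.41-fold to 3.19-fold lower in root. The other 6 were a second WRKY 31 gene, a second WRKY 9 gene and 1 gene each of WRKY 41, 42, 57 and 71, with differences of 2.23 to 3.74.

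Other transcription factor families held 1 to 3 genes of the set. NAC48-like (Ma06_g19100), of the NAC family of stress and senescence regulators, had 23.4 FPKM in low-N leaf against 3.12 FPKM in normal-N leaf, while low-N root had 1.62 FPKM against 15.5 FPKM in normal-N root. Its difference of 5.22 is the third largest among described genes of the class, with a 7.67-fold higher leaf level (4.08 to 16) and a 9.87-fold lower root level (4.27 to 28). It was the only gene of the set among 26 described NAC genes with enough signal, of which 19 were higher by size in low-N leaf. In comparison, 3.92% of the 2424 filtered-table genes at the required level were in the first class. Of the 2424, 1308 were higher by size in low-N leaf.

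LOB domain-containing protein 41-like (Ma04_g03810) had 10.2 FPKM in low-N leaf against 2.38 FPKM in normal-N leaf, with 18.2 FPKM in low-N root against 41.7 FPKM in normal-N root. It belongs to a plant family whose members 37, 38 and 39 repress nitrate-responsive genes in Arabidopsis. The other LOB gene with enough signal, LOB 37-like (Ma04_g14140), had a leaf change of 0.66 and a root change of -2.59 and so missed the criterion in leaf. Both LOB genes were lower by size in low-N root. The bHLH115-like factor (Ma10_g26460), named after an Arabidopsis regulator of iron supply, had 10.5 FPKM in low-N leaf against 4.66 FPKM in normal-N leaf, while low-N root had 18.3 FPKM against 60.0 FPKM in normal-N root. DOF1.4-like (Ma03_g14800), a zinc finger factor, had changes of 1.03 in leaf and -1.68 in root. MYB factors gave 1 gene in each class among 18, both described as myb-related protein P-like and chosen after their values were seen: Ma10_g19820 with a difference of 3.73 and Ma02_g00290 with -2.31. Of the filtered-table genes at the required level, 3.92% were in the first class and 1.73% in the second.

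The AP2/ERF and ethylene list gave 3 genes of 44, all of the first class. Of the filtered-table genes at the required level, 3.92% were in the first class and 1.73% in the second. These shares also stand beside the auxin counts below. The ethylene-responsive factor RAP2-13-like (Ma09_g12570) had 14.2 FPKM in low-N leaf against 5.86 FPKM in normal-N leaf, with 38.3 FPKM in low-N root against 142 FPKM in normal-N root. A related RAP2-4-like gene (Ma06_g11920) had a difference of 2.50. A 1-aminocyclopropane-1-carboxylate oxidase-like gene (Ma10_g16100), named for the last enzyme of ethylene synthesis, had 12.8 FPKM in low-N leaf against 4.13 FPKM in normal-N leaf, while low-N root had 28.8 FPKM against 64.6 FPKM in normal-N root. All 3 stayed higher in root than in leaf under both solutions. The auxin search terms caught 19 genes with enough signal, among them phototropin-2 (Ma08_g26200), whose name matched by its letters. Of the 19, ARG7-like (Ma01_g21160), of the SAUR type induced by auxin, and auxin-induced in root cultures protein 12 (Ma08_g00930) were in this class, with differences of 4.29 and 2.49. The list also held 1 gene of the other class, auxin response factor 12-like (Ma08_g13640), with a difference of -2.57 and chosen after its values were seen. ARG7-like rests on 12 expected counts in low-N leaf against 1 in normal-N leaf, and 7 in low-N root against 31 in normal-N root.

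Kinases and ubiquitin ligases were the signalling genes named in the class. The G-type lectin receptor kinase gene Ma10_g17960 had 23.6 FPKM in low-N leaf against 7.79 FPKM in normal-N leaf, with 7.16 FPKM in low-N root against 20.0 FPKM in normal-N root. CBL-interacting protein kinase 23-like (Ma04_g29510) is named after the Arabidopsis kinase that acts on nitrate and potassium transporters; it had 13.1 FPKM in low-N leaf against 3.88 FPKM in normal-N leaf, while low-N root had 10.6 FPKM against 24.9 FPKM in normal-N root. A kinase of the same family, CBL-interacting protein kinase 1-like (Ma07_g17570), is in the other class with a difference of -4.73 and was chosen after its values were seen. It had 0.17 FPKM in low-N leaf against 11.3 FPKM in normal-N leaf, with 3.12 FPKM in low-N root against 0.63 FPKM in normal-N root. Its root levels rest on 20 expected counts under low N against 4 under normal N. The RING-H2 finger protein ATL17-like (Ma08_g10110) and U-box protein 4-like (Ma07_g27710), both named as ubiquitin ligases, had differences of 3.64 and 3.09. The receptor kinase list of 140 genes also takes in other serine/threonine-protein kinases, such as Nek5-like (Ma09_g30240). It had 4 genes in this class and 2 in the other, and 106 ubiquitin and F-box genes had 4 and none. By size, 111 and 82 genes of the 2 lists were higher in low-N leaf, against 1308 of the 2424 filtered-table genes at the required level. Of those 2424 genes, 3.92% were in this class and 1.73% in the other, so nothing is read from these counts.

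The highest level of the class in any library was that of late embryogenesis abundant protein Lea5-like (Ma11_g16650), of a small protein family linked to drought and oxidative stress. It had 354 FPKM in low-N leaf against 77.5 FPKM in normal-N leaf, with 99.5 FPKM in low-N root against 252 FPKM in normal-N root. Leaf was the higher tissue under low N and root under normal N. Glutathione S-transferase U10-like (Ma05_g11740), of the enzymes that attach glutathione to toxic compounds, had 80.0 FPKM in low-N leaf against 17.7 FPKM in normal-N leaf, while low-N root had 40.4 FPKM against 98.4 FPKM in normal-N root. Leaf was again the higher tissue under low N and root under normal N. Cytochromes P450 714B3-like (Ma09_g16690) and 72A15-like (Ma04_g02860) were also in the class, with differences of 3.24 and 2.90. The list of gibberellin, abscisic acid, cytokinin and jasmonate had 35 genes with enough signal. In comparison, 3.92% of the filtered-table genes at the required level were in the first class. The only gene of the set on this list was the abscisic acid receptor PYL2-like (Ma10_g27910), chosen after its values were seen. It rests on 7 expected counts in low-N leaf against 0 in normal-N leaf, at least 2.35-fold higher with 3 counts as the floor, and on 8 in low-N root against 34 in normal-N root. Hexose carrier HEX6 (Ma06_g38870), a sugar importer, had 25.7 FPKM in low-N leaf against 11.8 FPKM in normal-N leaf, with 1.62 FPKM in low-N root against 8.10 FPKM in normal-N root. Subtilisin-like protease SBT5.4 (Ma10_g10200) had 11.0 FPKM in low-N leaf against 2.97 FPKM in normal-N leaf, while low-N root had 10.8 FPKM against 43.2 FPKM in normal-N root, so that the tissues were level under low N. Another subtilisin-like protease (Ma09_g30090), chosen after its values were seen, is in the other class with a difference of -3.56.

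Among the 12 largest described differences at 10 FPKM or more in the higher library of each tissue, 3 further enzymes had no list of their own. They were carboxylesterase 17 (Ma06_g18440), a gene described as a sialyltransferase (Ma06_g14830) and a putative methyltransferase (Ma02_g01130). Their differences were 3.96, 3.73 and 3.59. Low-N leaf was at 17.9 to 41.7 FPKM and normal-N leaf at 2.48 to 5.26 FPKM, while low-N root was at 7.76 to 14.9 FPKM and normal-N root at 18.1 to 39.3 FPKM.

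**Figure D3:**
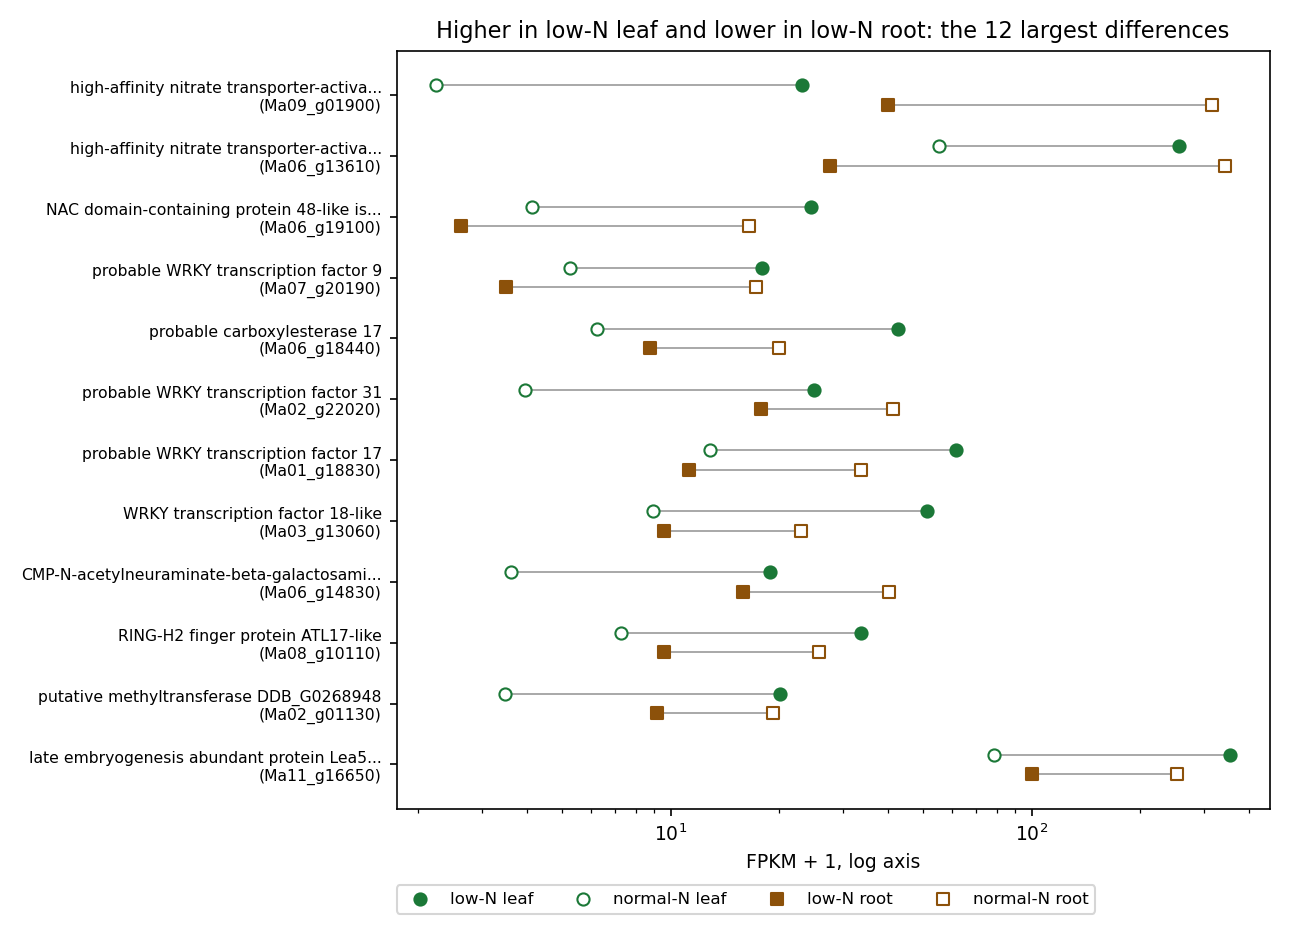
FPKM + 1 (log axis) in low-N leaf (filled circles), normal-N leaf (open circles), low-N root (filled squares) and normal-N root (open squares) for the 12 described genes with the largest differences among those higher in low-N leaf and lower in low-N root, at 10 FPKM or more in the higher library of each tissue. In each row the filled circle lies right of the open one and the filled square left of the open one; the NAR2 genes at the top show the widest gaps in root.

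The second class was led by polyphenol oxidase, the copper enzyme that oxidises phenols to quinones and browns cut banana tissue. Polyphenol oxidase Ma08_g09150 had 0.71 FPKM in low-N leaf against 25.6 FPKM in normal-N leaf, with 3391 FPKM in low-N root against 348 FPKM in normal-N root. Leaf was 38-fold lower under low N (16 to 118) and root was 9.73-fold higher (9.36 to 10.1), a difference of -7.24 and the largest in size of all 243 genes.

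The genes with the next 2 IDs are also polyphenol oxidases of the set; they fall outside the rule for naming genes and were chosen after their values were seen. Ma08_g09160 had 0.84 FPKM in low-N leaf against 9.27 FPKM in normal-N leaf, while low-N root had 4527 FPKM against 467.5 FPKM in normal-N root. Ma08_g09170 had 0.18 FPKM in low-N leaf against 4.58 FPKM in normal-N leaf, with 218 FPKM in low-N root against 27.1 FPKM in normal-N root. The expected counts of all 3 are not whole, so reads were shared between genes and the split among them is uncertain; their sum is less so.

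Summed over the 3 genes, expected counts were 12 in low-N leaf and 285 in normal-N leaf, and 59326 in low-N root and 6134 in normal-N root. That is 0.00029% of all counts in low-N leaf against 0.00684% in normal-N leaf, and 1.35% in low-N root against 0.14% in normal-N root. The sum was 23.6-fold lower in low-N leaf (13.3 to 46.3) and 9.64-fold higher in low-N root (9.39 to 9.9). Root held far more of these transcripts than leaf under either solution, and low N widened that gap. The other 3 of 6 described polyphenol oxidases with enough signal behaved otherwise, being higher in low-N leaf with root changes of 0.25, -0.92 and 0.66. Ma08_g34740, for example, had 108 FPKM in low-N leaf against 16.1 FPKM in normal-N leaf, while low-N root had 11.0 FPKM against 21.7 FPKM in normal-N root.

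Flavonoid synthesis supplied the next genes. Leucoanthocyanidin dioxygenase-like (Ma05_g03850), a late enzyme towards anthocyanidins, had 0.67 FPKM in low-N leaf against 20.6 FPKM in normal-N leaf, with 306 FPKM in low-N root against 138 FPKM in normal-N root. Chalcone synthase 2-like (Ma06_g12370), the entry enzyme of the flavonoid pathway, had 0.20 FPKM in low-N leaf against 10.8 FPKM in normal-N leaf, while low-N root had 89.7 FPKM against 42.2 FPKM in normal-N root. Both were nearly lost from low-N leaf, at 3 and 1 expected counts, and were 2.21-fold (2.02 to 2.43) and 2.12-fold (1.80 to 2.50) higher in low-N root.

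The phenylpropanoid, flavonoid and lignin list was split, with 5 genes in the first class and these 2 in the second among 31 described genes with enough signal. Under scaling by median ratios the split was 3 and 3. Of the filtered-table genes at the required level, 3.92% were in the first class and 1.73% in the second. Of the 5, dirigent protein 2-like (Ma05_g01210), of the proteins that steer lignan and lignin coupling, had 13.2 FPKM in low-N leaf against 4.84 FPKM in normal-N leaf, with 15.99 FPKM in low-N root against 69.1 FPKM in normal-N root. Anthocyanin 3'-O-beta-glucosyltransferase-like (Ma06_g29070), named for an enzyme that adds sugar to anthocyanins, had 80.7 FPKM in low-N leaf against 19.8 FPKM in normal-N leaf, while low-N root had 5.32 FPKM against 11.8 FPKM in normal-N root. Its root change of -1.01 was just past the limit. Perakine reductase-like (Ma08_g27540), an aldo-keto reductase by name, followed the flavonoid enzymes of the second class with 1.07 FPKM in low-N leaf against 17.6 FPKM in normal-N leaf, with 127 FPKM in low-N root against 58.2 FPKM in normal-N root.

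Cell wall genes were found in both classes, 4 in the first and 5 in the second among 61 described genes with enough signal. Of the filtered-table genes at the required level, 3.92% were in the first class and 1.73% in the second. Rhamnose biosynthetic enzyme 1 (Ma10_g14250), outside that list, is an enzyme which makes the sugar donor for pectin. It had 11.6 FPKM in low-N leaf against 39.2 FPKM in normal-N leaf, while low-N root had 206 FPKM against 70.5 FPKM in normal-N root. Fasciclin-like arabinogalactan protein 2 (Ma09_g19980), a cell surface glycoprotein, had 0.40 FPKM in low-N leaf against 5.79 FPKM in normal-N leaf, with 185 FPKM in low-N root against 81.9 FPKM in normal-N root. Beta-galactosidase-like (Ma02_g18550), named for an enzyme that trims wall sugars, was 15.8-fold lower in low-N leaf (7.41 to 40.2) and 12.3-fold higher in low-N root (5.39 to 34.6). Its levels were 0.76 FPKM in low-N leaf against 11.8 FPKM in normal-N leaf, while low-N root had 7.41 FPKM against 0.63 FPKM in normal-N root, so it was a leaf transcript under normal N and a root transcript under low N. On the other side, endoglucanase 12-like (Ma02_g07670), a cellulase by name, had 7.21 FPKM in low-N leaf against 1.41 FPKM in normal-N leaf, with 54.6 FPKM in low-N root against 111 FPKM in normal-N root.

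Cytochrome P450 90B1-like (Ma08_g27070), named for an early enzyme of brassinosteroid synthesis, had 1.98 FPKM in low-N leaf against 6.70 FPKM in normal-N leaf, while low-N root had 590.1 FPKM against 277 FPKM in normal-N root. Delta(24)-sterol reductase-like (Ma08_g13320), named for a step of sterol synthesis that precedes brassinosteroids, had 17.6 FPKM in low-N leaf against 40.9 FPKM in normal-N leaf, with 302 FPKM in low-N root against 104 FPKM in normal-N root. Non-specific lipid-transfer protein 2-like (Ma04_g30830) and a proline-rich protein gene of the cell wall list (Ma08_g17130) had differences of -2.68 and -2.84. A second lipid-transfer protein gene (Ma02_g19230), chosen after its values were seen, had a difference of -2.22. These 5 genes were higher in root than in leaf under both solutions.

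Metallothionein-like protein (Ma06_g27920), a small cysteine-rich metal binder, was the most abundant leaf transcript of the set. It had 2282 FPKM in low-N leaf against 6215 FPKM in normal-N leaf, while low-N root had 339 FPKM against 101 FPKM in normal-N root. Its expected counts are not whole, so part of its reads were shared with other genes. The tissues kept their order, leaf above root, under both solutions. Alpha carbonic anhydrase 1-like (Ma02_g08780), which interconverts CO2 and bicarbonate, likewise stayed higher in leaf, with 56.6 FPKM in low-N leaf against 126 FPKM in normal-N leaf, with 14.2 FPKM in low-N root against 6.24 FPKM in normal-N root. Peroxisomal acetate/butyrate-CoA ligase AAE7 (Ma09_g15890), which activates short fatty acids, and patellin-3-like (Ma03_g23140) were higher in root under low N and in leaf under normal N. AAE7 had 62.4 FPKM in low-N leaf against 129 FPKM in normal-N leaf, while low-N root had 143 FPKM against 54.6 FPKM in normal-N root. Another metallothionein-like gene, of type 3 (Ma03_g16510), is not in the set and was lower under low N in both tissues. It had 1263 FPKM in low-N leaf against 2107 FPKM in normal-N leaf, with 1085 FPKM in low-N root against 4017 FPKM in normal-N root.

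Photosystem and chlorophyll genes of the set were weakly measured in root. Of 6 photosystem and antenna genes with enough signal in root, all 6 were lower by size in low-N leaf and 2 were higher by size in low-N root. In comparison, 1.73% of the 2424 genes of the authors' filtered tables at the required level were in the second class. Of the 2424, 558 were lower by size in low-N leaf and 243 higher by size in low-N root. Both photosystem genes rest on few root reads and, with STAY-GREEN LIKE, fall outside the rule for naming. Photosystem II reaction center W (Ma04_g27610) had 449 FPKM in low-N leaf against 1107 FPKM in normal-N leaf but only 5 expected counts in low-N root against 1 in normal-N root, and its root interval (0.558 to 236) includes 1. Photosystem I subunit N (Ma00_g01500) had 4 and 1 expected counts in low-N and normal-N root. STAY-GREEN LIKE (Ma08_g08020) had 8.56 FPKM in low-N leaf against 31.7 FPKM in normal-N leaf, and 8 expected counts in low-N root against 0 in normal-N root.

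Hevamine-A-like (Ma08_g33260), a chitinase by name and likewise chosen after its values were seen, had 1389 FPKM in low-N root against 105 FPKM in normal-N root, 13.3-fold higher (12 to 14.6). Its leaf side is weak, with 0.28 FPKM in low-N leaf against 2.12 FPKM in normal-N leaf, at 1.1 and 8.42 expected counts.

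The most abundant gene of the class in normal-N root has no functional description and was also chosen after its values were seen. Ma05_g10700 had 1.36 FPKM in low-N leaf against 16.02 FPKM in normal-N leaf, with 3197 FPKM in low-N root against 1333 FPKM in normal-N root. It was a root transcript under both solutions.

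**Figure D4:**
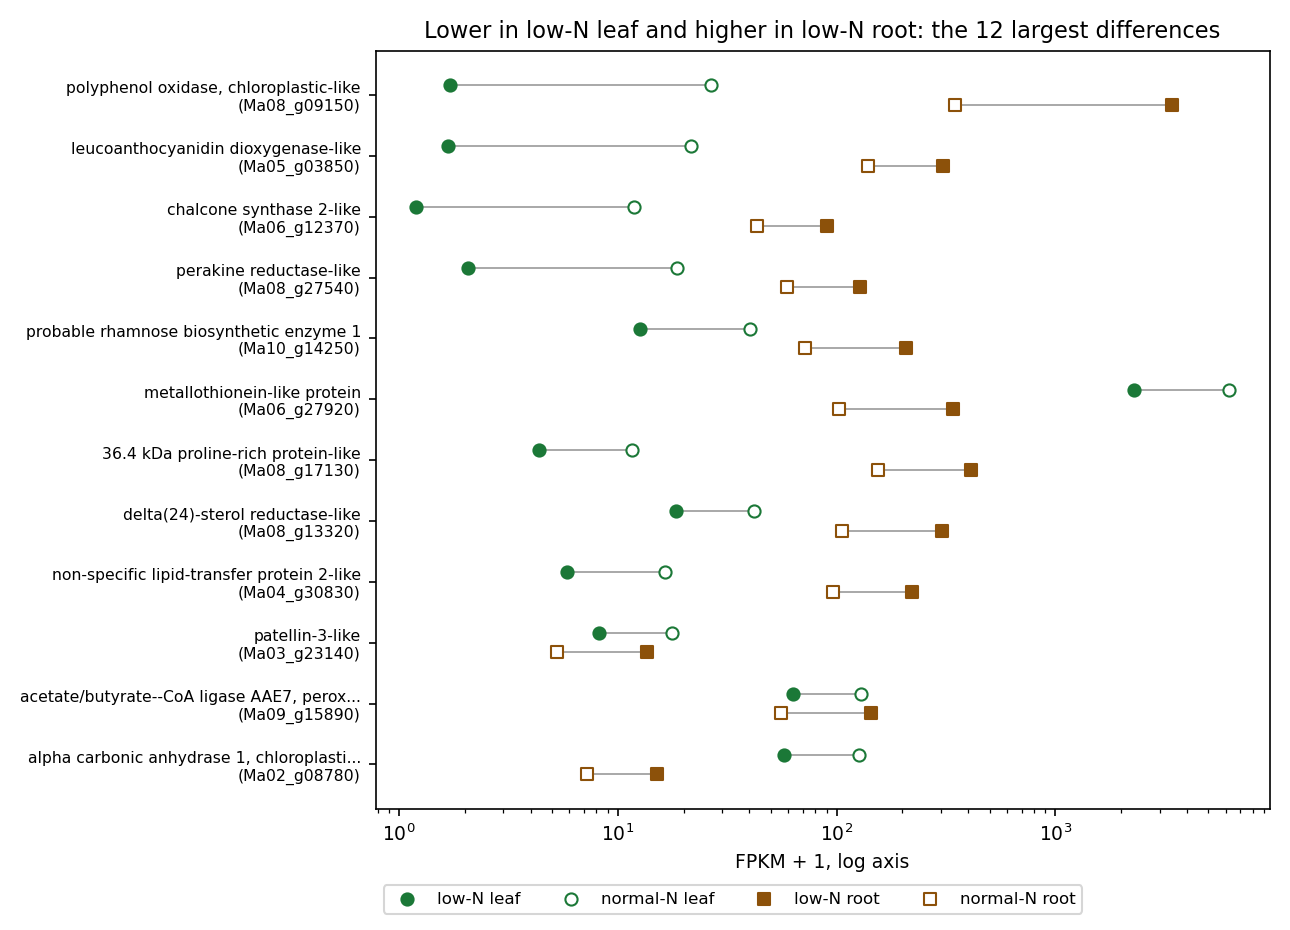
FPKM + 1 (log axis) in the same 4 libraries for the 12 described genes with the largest differences among those lower in low-N leaf and higher in low-N root, at 10 FPKM or more in the higher library of each tissue. The filled circle lies left of the open one and the filled square right of the open one in each row; polyphenol oxidase at the top spans 0.71 FPKM in low-N leaf to 3391 FPKM in low-N root, and metallothionein-like protein is the row with both leaf levels far to the right.

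The criterion compares changes and does not use which tissue is higher, although opposite changes necessarily move that order. In the first class, 93 of 163 genes were higher in leaf by at least 1 on the log2 scale under low N and 11 were higher in root, against 11 higher in leaf and 114 higher in root under normal N. The median of leaf over root was 1.42 under low N and -1.78 under normal N. A full exchange, root-high under normal N and leaf-high under low N, was seen in 44 genes, against 97 of all 19179 genes (0.506%). Over all 19179 genes, 4010 were higher in leaf and 5317 higher in root under low N, against 3467 higher in leaf and 6479 higher in root under normal N, with medians of -0.13 under low N and -0.41 under normal N. The criterion itself pushes the first class towards leaf under low N and towards root under normal N, so nothing is read from these counts.

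In the second class, 9 of 80 genes were higher in leaf by at least 1 under low N and 58 were higher in root, against 47 higher in leaf and 19 higher in root under normal N. The medians of leaf over root were -2.20 under low N and 1.72 under normal N. The exchange from leaf-high to root-high was seen in 25 genes, against 35 of all genes (0.182%). At 10 FPKM or more in the higher library of each tissue, the 12 largest described differences included 9 exchanges in the first class and 1 in the second. Most of these 12 genes of the second class were root transcripts under both solutions. The level limit left out differences larger in size, such as beta-galactosidase-like (Ma02_g18550, -5.23), which did exchange. Over the whole classes the contrast was not seen, with 44 of 163 and 25 of 80 genes. With at least 20 expected counts in the higher library of each tissue, 18 and 4 genes of the 2 classes exchanged their tissues.

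**Figure D5:**
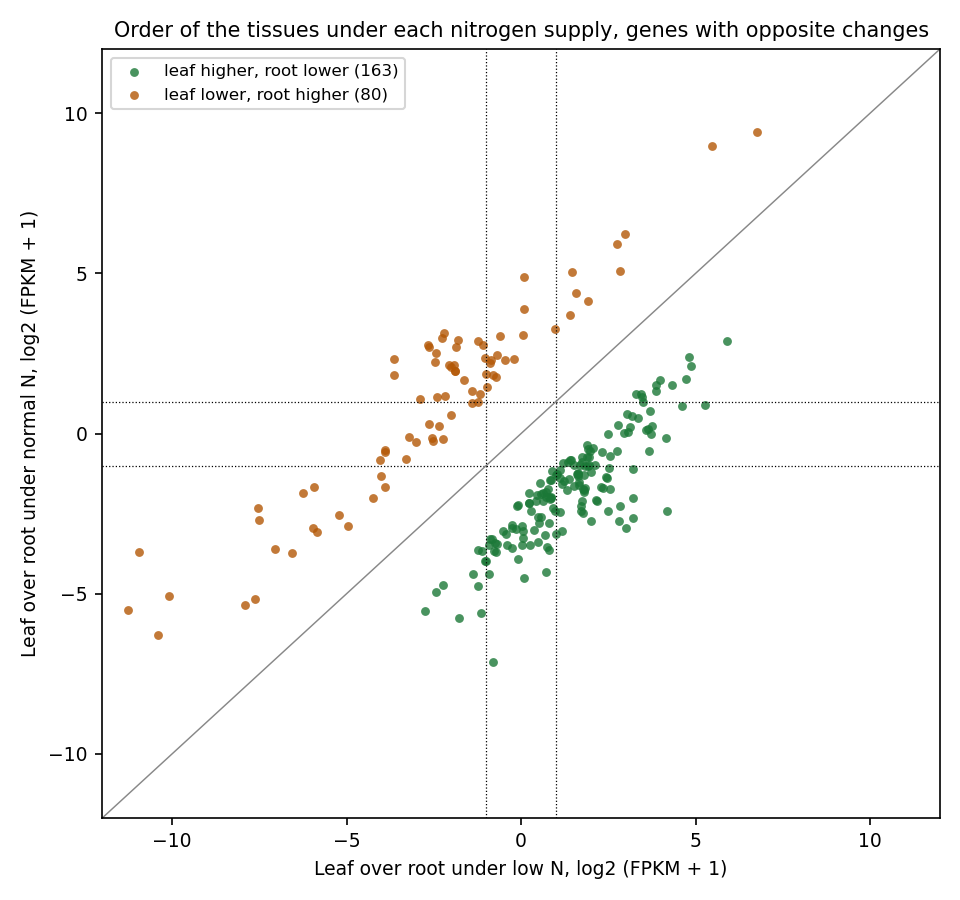
Leaf over root on the log2 (FPKM + 1) scale under low N (x axis) and under normal N (y axis) for the 243 genes, green for the 163 higher in low-N leaf and lower in low-N root and orange for the other 80. Dotted lines mark a ratio of 1 in size and the diagonal an equal ratio under both solutions; by the criterion green points lie below the diagonal and orange points above it, and those in the lower right and upper left corners are the 44 and 25 genes whose tissues exchanged order.

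Not all 243 genes are equally well measured. Of these, 137 are in at least 1 of the authors' filtered tables and 106 are in neither. The 106 had a median of 9 expected counts in their highest library, 56 of them had fewer than 10, 49 had a library at 0, and their median length was 266 bases. The 137 had a median highest count of 171, none under 10, 8 with a library at 0, and a median length of 936 bases; over all 19179 genes the median length was 1116 bases. Counting intervals without 1 in both tissues were found for 20 of the 106 and 124 of the 137, in all 144 genes (0.751% of all), 103 of the first class (0.537%) and 41 of the second (0.214%). Over all 19179 genes, in the set or not, 3211 had such intervals in both tissues. The criterion picks large changes in the same libraries, so it favours such intervals among the 243.

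The largest difference of the first class, 6.60, belongs to a gene without a functional description (Ma10_g21270), with 17.2 FPKM in low-N leaf against 1.90 FPKM in normal-N leaf, while low-N root had 0 FPKM against 14.4 FPKM in normal-N root. An informative description was found for 108 of the 243 genes, 73 of the first class and 35 of the second, and 72 of these fell into at least 1 of 36 functional lists. The lists for the Calvin cycle, phosphate and sulfate, lipoxygenases, class III peroxidases, histones and cell cycle, ribosome and translation, and hemoglobin and fermentation held none. They had 6 to 35 genes each with enough signal. Of the filtered-table genes at the required level, 3.92% were in the first class and 1.73% in the second, so nothing is read from these empty lists. When the KEGG Orthology descriptions of the authors' filtered tables were searched too, 86 genes of the set fell into a list. Ribosome and translation then held 2 genes of each class, and histones and cell cycle and hemoglobin and fermentation held 1 each of the second. In the list of genes ordered by ID, 6 neighbouring pairs were both in the set, 2 of them among the polyphenol oxidases, and all 6 pairs fell in the same class.

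The authors' deposited tables held 183 genes in both tissues, 87 of them with opposite log2 ratios (63 higher in low-N leaf and 24 lower). Of these 87 genes in the authors' deposited tables, 71 are in the set, and the set has 243. For Ma09_g01900 the authors' deposited table gave log2 ratios of 4.16 in leaf and -3.01 in root. Those ratios carry no added 1, so they are larger than the changes used here where a level is low.

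At the threshold, pyruvate, phosphate dikinase-like (Ma02_g03830), a chloroplast enzyme of pyruvate metabolism, was just inside the first class with a leaf change of 1.00, at 2.06 FPKM in low-N leaf against 0.53 FPKM in normal-N leaf, with 9.58 FPKM in low-N root against 82.5 FPKM in normal-N root. The undescribed gene Ma10_g19940 was also just inside, with changes of 1.00 and -1.07, and the undescribed gene Ma01_g01270 was just outside with 0.99 and -1.21. In the second class the notum homolog (Ma04_g18920) was just inside, with changes of -1.05 and 1.01, and subtilisin-like protease SDD1 (Ma06_g06960) was just outside with -2.19 and 0.99. Genes on the 2 sides of the limit thus had nearly equal changes, and the limit separates no natural groups.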

How the data were processed

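Poly(A) RNA was sequenced from 1 library per group. Per the file headers, the authors deposited an FPKM value and an expected count (fragments assigned to a gene by estimate, often not whole) per gene and library. They also deposited, per tissue, a filtered table that compares low N with normal N and includes the log2 ratio, its p-value and its FDR. Per the submitters' processing notes, BWA and Bowtie were used; their versions and the counting tool, build, annotation and test were not given in the sources used here. Those deposited p-values compare 2 libraries and were not used. A gene missing from a library's list was read as 0. Of all genes, 93.9% had a length divisible by 3, so the length is probably a coding length. The reference gene table held 0 of 31873 IDs, so coordinates and sequences are not given.

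Changes were computed with Python 3.11.15, numpy 2.4.6, pandas 2.3.3 and scipy 1.17.1 from FPKM with a pseudocount of 1 (plots with matplotlib 3.10.9). Single-gene folds were computed from rounded expected counts divided by library totals, and their 95% intervals are Clopper-Pearson intervals; a library at 0 was given a floor of 3 counts, or 0.68 to 0.724 FPKM for a 1 kb gene. An expected count within 0.005 of a whole number was called whole. The calculations were tested on simulated data. No test between groups was run, since each had 1 library.

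Descriptions and 36 lists of search terms came from the best BLAST match in the filtered tables. Named were, per class, the 12 described genes with the largest difference at 10 FPKM or more in the higher library of each tissue, up to 2 genes per list and direction at 5 FPKM or more, and all of the set in the nitrogen lists, with 2 genes on each side of the threshold and the most abundant gene of a list outside the set. Not all genes picked by this rule are described above. The 53 named genes of the set counted under other settings are those the rule picked. The genes and lists were chosen with earlier results of these data known. Alternatives were other pseudocounts, filters, size limits and scalings, and list terms searched in the KEGG Orthology descriptions as well.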

Additional observations from a re-analysis of the deposited data

Results flagged for a closer look

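Each gene of the set moved opposite ways in the 2 tissues by the criterion itself, and with 1 library per group that difference was not tested. The described genes with at least 10 FPKM in the higher library of each tissue and a difference of at least 5 in size are repeated here. They are the NAR2 genes Ma09_g01900, with a difference (leaf change minus root change, log2 scale) of 6.34, and Ma06_g13610, with 5.84, NAC48-like Ma06_g19100, with 5.22, and polyphenol oxidase Ma08_g09150, with -7.24. The counts of Ma06_g19100 and Ma08_g09150 are not whole, so part of their reads were shared with other genes.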

How the results depend on the processing

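Counts of the set depend on the settings. No named gene reversed under the 9 settings tried on each, but a pseudocount or filter cannot reverse a sign. The scalings were small beside changes of at least 1 in size, so the absence of reversals shows no stability. With a pseudocount of 5, 30 of the 53 named genes no longer met the criterion, with a filter of 10 FPKM 15, and with scaling by median ratios 12. In the class higher in low-N leaf and lower in low-N root, in place of 163 genes, 255 were found with a pseudocount of 0.1, 30 with 5, 57 at 10 FPKM, 899 at a size of 0.5, 13 at a size of 2 and 63 in the authors' deposited tables. For the 80 of the other class the values were 15 with a pseudocount of 5, 122 without a filter, 16 at 10 FPKM, 450 at a size of 0.5, 12 at a size of 2 and 24 in the authors' deposited tables. Under 2 settings chosen after seeing the data, at least 20 expected counts and counting intervals without 1, the classes held 75 and 24, and 103 and 41. The genes that exchanged root for leaf (44) numbered 81 without a filter, 22 on counts divided by library totals, 20 by intervals, 19 at 10 FPKM, 18 at 20 counts and 11 with a pseudocount of 5; those that exchanged leaf for root (25) numbered 44, 6, 6, 3, 4 and 3. The median difference moved to 3.24 in the first class with a pseudocount of 0.1, and in the second to -3.66 with 0.1, -2.89 with 5 and -2.78 on counts divided by library totals. Scaling by median ratios moved the median difference of all genes from 0.15 to -0.10 and the leaf median from 0.12 to -0.08, and the share of the set higher in low-N leaf was 50.2% in place of 67.1%, with 189 of the 243 genes kept; it was 56.8% with the median change set to 0, 55.8% by the upper quartile and 78.1% at 10 FPKM. Of 53 named genes of the set, 21 stayed in it under every setting. No paired analysis was possible because each group had 1 library, and no replicate could be left out. In 56 of the 243 genes no library reached 10 counts, so their changes rest on few fragments.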
